A study of Mus musculus with 6 samples.

Results

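The genes of 6 metabotropic glutamate receptors, Grm2, Grm3, Grm4, Grm5, Grm7 and Grm8, were taken by symbol from the 22000 gene symbols of the count table. All 6 were found, and all 6 were above the filter on low counts described below. Their RNA was measured in the prefrontal cortex (PFC) of 3 control mice and 3 mice with early life stress (ELS), with 1 library per mouse. All 6 animals were male C57BL/6N mice aged 9 weeks by the labels. The ELS mice were housed alone in cages with a filter cap from weaning at postnatal day 21, while control males were housed 4 to a cage without the cap. Isolation ran to postnatal day 50, and after behavioral testing all mice stayed in their housing until dissection at day 67. The control and ELS mice came from litters that shared a mother, and the dissection holds all cell types of the region. The comparison asked whether isolation after weaning changed the level of receptor transcripts in whole PFC tissue, where fewer cells of a type and less RNA per cell cannot be told apart.

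Metabotropic glutamate receptors are G protein-coupled receptors that adjust synaptic transmission, whereas ionotropic glutamate receptors carry the fast current. Group I receptors, of which Grm5 is a member, couple to Gq proteins and phospholipase C and lie mostly at postsynaptic sites. Group II (Grm2 and Grm3) and group III (Grm4, Grm7 and Grm8) couple to Gi/o proteins, lower cyclic AMP and act largely as brakes on transmitter release. Grm3 is also known from astrocytes, and the peptide N-acetylaspartylglutamate (NAAG) is one of its agonists. Grm7 is a low-affinity receptor placed at the active zone of nerve terminals.

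The genes lie on separate chromosomes apart from Grm7 and Grm8 (GENCODE M21, assembly GRCm38, which equals mm10). Grm5, on the plus strand of chromosome 7 from 87584168 to 88134907, spans 550.7 kb with 13 exon blocks. Grm2, on the minus strand of chromosome 9 from 106643095 to 106656082, is the most compact, with 7 exon blocks in 13.0 kb. Grm3 lies on the minus strand of chromosome 5 from 9485541 to 9725170, and Grm4 on the minus strand of chromosome 17 from 27422387 to 27521403. Grm7 (plus strand, 110645581 to 111567230) and Grm8 (minus strand, 27275119 to 28135178) share chromosome 6, and each covers more than any of the other 4 genes, at 921.6 and 860.1 kb. Antisense noncoding genes cover 9.6% of the Grm2 exons and 2.21% of the Grm7 exons. A microRNA gene on the same strand overlaps 0.97% of the Grm8 exons, and no annotated exon overlaps those of Grm3, Grm4 or Grm5. The labels name a stranded kit, but the strand setting of the counting is not given in the sources used here, so reads of Grm2 and of its antisense partner may not have been told apart.

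RefSeq start windows (GRCm38.p6, 250 bases before to 50 after an annotated start) were found for 4 of the 6 genes, in 7 windows. The windows of both group II receptors are shown because this pair is compared within each mouse below. Capitals mark the GC box GGGCGG, the letters bound by Sp1-type factors, read on both strands.
Grm2, chr9:106656060-106656359, minus strand: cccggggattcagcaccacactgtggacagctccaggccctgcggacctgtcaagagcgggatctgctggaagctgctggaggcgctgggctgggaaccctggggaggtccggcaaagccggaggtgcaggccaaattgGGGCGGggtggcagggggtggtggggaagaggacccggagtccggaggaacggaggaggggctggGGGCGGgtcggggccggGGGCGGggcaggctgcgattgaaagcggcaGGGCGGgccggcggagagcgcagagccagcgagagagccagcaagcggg
Grm3, chr5:9725303-9725602, minus strand: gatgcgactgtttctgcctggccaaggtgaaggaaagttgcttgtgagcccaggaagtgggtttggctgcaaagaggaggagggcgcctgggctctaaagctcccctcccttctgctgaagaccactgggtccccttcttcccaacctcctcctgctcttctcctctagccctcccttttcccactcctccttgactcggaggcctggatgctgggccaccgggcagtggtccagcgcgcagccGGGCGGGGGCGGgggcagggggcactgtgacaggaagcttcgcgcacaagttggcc
The Grm2 window held 4 such matches and 72.0% G and C bases, and the Grm3 window held 2 matches, which are adjacent, and 63.7% G and C bases, against a median of 52.7% over 32851 windows. Of the 7 windows of these receptors 5 held the letters, compared with 35.7% of all windows. Of these windows 3 belong to Grm8 and 2 to Grm7, and the 2 of Grm7 overlap each other over most of their length, so they are not independent. The EGR letters GCGTGGGCG, the CRE letters TGACGTCA, the AP-1 letters TGACTCA and the E-box letters CACGTG were in none of the 7, and occur in 0.6%, 1.8%, 5.2% and 7.2% of all windows. The shorter CRE letters TGACG occurred in 1 Grm8 window and in 20.8% of all windows. A match is a description of the sequence and not evidence of binding.

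Total counts ran from 28405795 to 35241743 per mouse, and all 3 ELS libraries exceeded all 3 control libraries in depth. Levels are given as CPM, counts scaled to a common library size with TMM factors. A filter of 1 CPM, to be met by each of the 3 mice in a group, left 13185 genes for the quasi-likelihood test of edgeR. Called genes had to pass an adjusted p of 0.05 and a log2 fold change of 0.3 in size. Markers of cortical excitatory neurons summed to between 6970 and 8116 CPM, whereas the cerebellar marker Gabra6 had no count in any mouse and 4 of 5 choroid plexus markers were below the filter. Markers of striatal projection neurons set 2 libraries apart: the 9 of 10 listed markers found in the table summed to 561 CPM in control mouse 3 and 547 CPM in ELS mouse 1, against 299.7 and 328.6 CPM in the other control mice and 363.1 and 388.7 CPM in the other ELS mice. Each group held 1 of these 2 mice, and among the other 4 both ELS sums were above both control sums. Of the 9 markers 8 had a fold change above 0 in ELS mice, with a median of 0.19 on the log2 scale and none called. Fold changes of the receptors are given with and without the 2 mice.

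None of the 6 receptor genes passed the test between control and ELS mice. The quasi-likelihood test called 0 of 6, where it called 0.0152% of all genes tested (adjusted p = 0.99998 for each receptor, edgeR), and 0 of 6 had an unadjusted p under 0.05, where 4.23% of all genes had. DESeq2 also called 0 of 6, against 0.137% of all genes called. With DESeq2 0 of 6 had an unadjusted p under 0.05, for which the share over all genes is not given here. Control and ELS mice overlapped in each of the 6 genes, while 8.28% of all genes had groups that did not overlap. Fold changes were above 0 for 3 receptors (Grm5, Grm7 and Grm2), beside 47.5% of all genes, and below 0 for Grm3, Grm8 and Grm4, with a median of 0.02 on the log2 scale beside -0.0046 for all genes tested. The median absolute log2 fold change was 0.078 for the receptors and 0.058 for all genes.

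**Figure D1:**
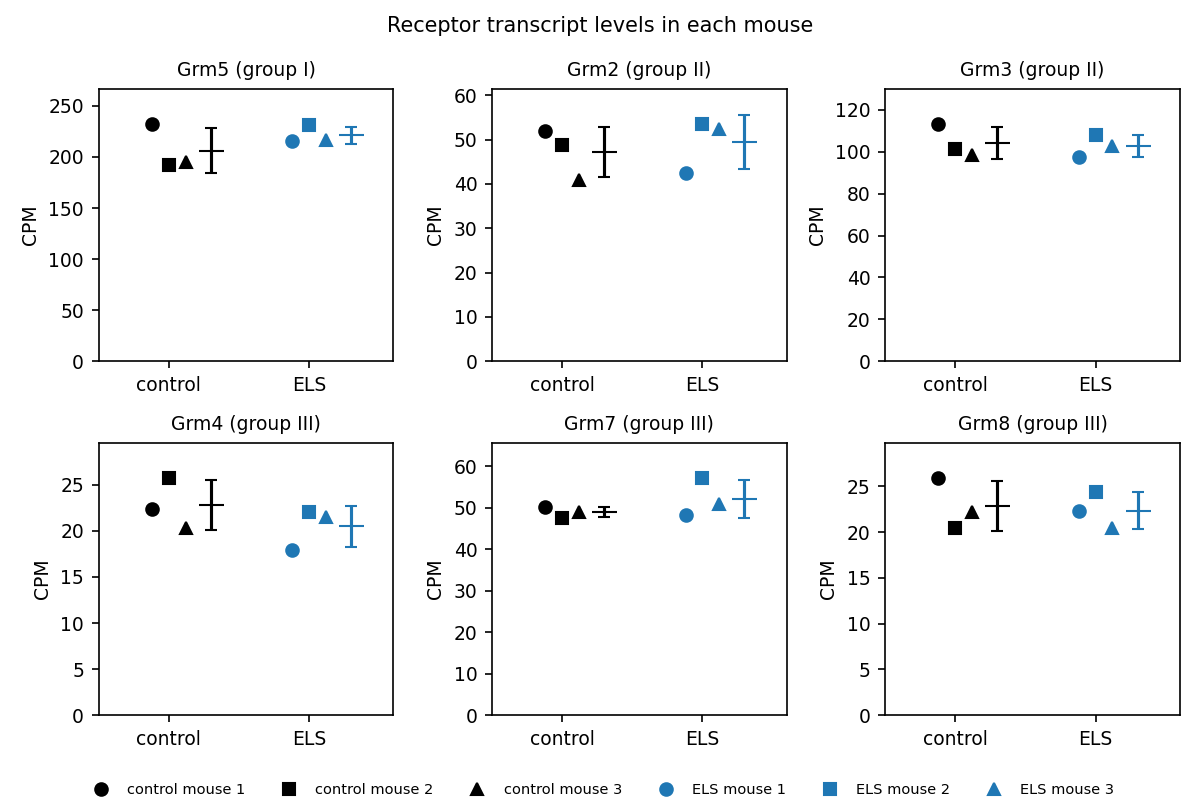
Transcript level of each receptor in CPM (vertical axis, from 0) in 3 control mice (black) and 3 ELS mice (blue), with a symbol per mouse number and the mean with its SD (n = 3) beside them. The groups overlap in all 6 panels, and Grm2 is lowest in control mouse 3 and ELS mouse 1.

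Grm5, the group I receptor that signals through Gq, had 231.8, 192.1 and 194.7 CPM across controls 1 to 3 and 215.9, 230.9 and 217.1 CPM across ELS animals 1 to 3. The ELS mice lay within the range of the control mice, whose highest and lowest values were both more extreme. The means were 206 ± 22.2 CPM in controls and 221 ± 8.31 CPM under ELS (± SD, 3 per group), a log2 fold change of 0.10 (standard error 0.0801, 95% interval -0.072 to 0.28). Control mouse 1 alone set the upper end of the controls. Without it the fold change was 0.19 (unadjusted p = 0.0221 and adjusted p = 0.9995, edgeR, with 4.16% of all genes under an unadjusted 0.05), and without control mouse 2 it was 0.054. Grm5 had the most counts of the 6, between 5423 and 8072 per mouse, so that counting error was 1.22% of its mean.

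Grm2, a group II receptor of nerve terminals, had 51.9, 48.9 and 40.8 CPM across controls 1 to 3 and 42.5, 53.4 and 52.5 CPM across ELS animals 1 to 3. Both groups held a low mouse, control mouse 3 and ELS mouse 1, the same mice that had the highest striatal markers. The means were 47.2 ± 5.70 and 49.5 ± 6.04 CPM (± SD, 3 per group), a log2 fold change of 0.07 (standard error 0.104, 95% interval -0.16 to 0.29). Without both of these mice it was 0.07 (adjusted p = 0.818, edgeR), and the direction turned to -0.028 without control mouse 3 alone.

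Grm3, the group II receptor shared with astrocytes, had 113, 101 and 98.2 CPM across controls 1 to 3 and 97.7, 108 and 103 CPM across ELS animals 1 to 3. Control mouse 1 was the highest of the 6 and ELS mouse 1 the lowest. Group means were 104 ± 7.78 and 103 ± 5.10 CPM (± SD, 3 per group). The log2 fold change of -0.02 (standard error 0.0736, 95% interval -0.18 to 0.14) was the nearest to 0 of the 6, and its interval bounds any change between a fall of 11.7% and a rise of 10.2%. Its sign turned without control mouse 1 (0.043), without ELS mouse 1 (0.014) and with the striatal covariate (0.014), and it was -0.062 without control mouse 3. Summed astrocyte markers ran from 2534 to 2810 CPM in controls and from 2483 to 2755 CPM under ELS, also overlapping.

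Within each mouse the level of Grm2 was set against that of Grm3, a ratio in which library scaling cancels. The log2 ratio of counts was -1.12, -1.05 and -1.27 in control mice and -1.20, -1.01 and -0.97 in ELS mice. The means were -1.15 ± 0.109 and -1.06 ± 0.122 (± SD, 3 per group), a difference of 0.086 (exact permutation test, two-sided, p = 0.4, where 3 against 3 mice cannot give a p below 0.1). The lowest value of each group came again from control mouse 3 and ELS mouse 1.

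Grm4, a group III receptor best known from the cerebellum, had 22.3, 25.7 and 20.3 CPM across controls 1 to 3 and 17.9, 22.0 and 21.6 CPM across ELS animals 1 to 3. ELS mouse 1 was the lowest of all and control mouse 2 the highest, and the other 4 lay between 20.3 and 22.3 CPM. The means were 22.8 ± 2.72 and 20.5 ± 2.23 CPM (± SD, 3 per group). The log2 fold change of -0.15 (standard error 0.107, 95% interval -0.38 to 0.082) was the furthest from 0 among the receptors, and 83.5% of all genes tested had a smaller absolute fold change. Its interval passed the fold change threshold and included a fall of 23.4%. The value was -0.23 without control mouse 3 (unadjusted p = 0.039, adjusted p = 0.401, edgeR, with 11.7% of all genes under an unadjusted 0.05), -0.056 without control mouse 2 and -0.066 without ELS mouse 1.

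Grm7, the group III receptor of the active zone, had 50.2, 47.6 and 49.0 CPM across controls 1 to 3 and 48.3, 57.1 and 50.9 CPM across ELS animals 1 to 3. The control mice differed little among themselves, with a coefficient of variation of 2.62%, close to the counting error of 2.51%, whereas ELS mouse 2 stood above the rest. The means were 48.9 ± 1.28 and 52.1 ± 4.52 CPM (± SD, 3 per group), and the log2 fold change was 0.09 (standard error 0.0761, 95% interval -0.076 to 0.25). It fell to 0.015 without ELS mouse 2 and rose to 0.14 without ELS mouse 1.

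Grm8, also of group III, had 25.9, 20.5 and 22.3 CPM across controls 1 to 3 and 22.3, 24.4 and 20.4 CPM across ELS animals 1 to 3. Control mouse 1 was the highest, as it was for Grm3 and Grm5, and the lowest values of both groups were nearly equal. The means of 22.9 ± 2.75 and 22.4 ± 1.98 CPM (± SD, 3 per group) gave a log2 fold change of -0.03 (standard error 0.102, 95% interval -0.25 to 0.19). Its sign turned without control mouse 1 (0.066) and without ELS mouse 3 (0.028).

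**Figure D2:**
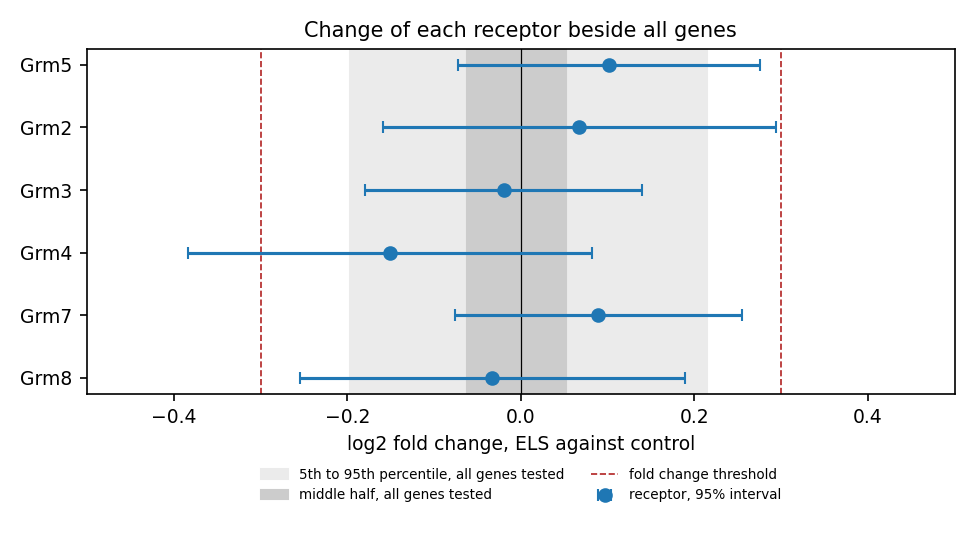
Log2 fold change of ELS against control mice (horizontal axis) for the 6 receptors, with 95% intervals from the quasi-likelihood fit, over shaded bands for the quartiles and the 5th and 95th percentiles of all 13185 genes. Every interval includes 0, and that of Grm4, from -0.38 to 0.082, alone passes the dashed threshold of 0.3.

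The precision was similar across the receptors. The biological coefficient of variation estimated by edgeR ran from 6.69% for Grm7 to 9.01% for Grm2, beside a median of 7.57% over all genes, and counting error ran from 1.22% of the mean for Grm5 to 3.85% for Grm4. For each receptor the counting error was smaller than this spread between mice. For 5 of the 6 receptors the 95% interval lay within 0.3 of 0 on the log2 scale. With 3 mice per group these intervals give the changes compatible with the data and are not limits of detection. An interval that includes 0 does not show that levels were equal.

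Levels of different receptors were compared as CPM per kilobase of exon. Over all 6 mice Grm3 was highest at 33.9 ± 1.95, ahead of Grm5 at 20.9 ± 1.67, Grm2 at 9.87 ± 1.10, Grm7 at 8.58 ± 0.582, Grm4 at 3.62 ± 0.426 and Grm8 at 2.28 ± 0.218 (SD, n = 6). Each receptor was above the next in 6 of 6 mice. Grm2 and Grm7 were the only neighbors whose ranges over the mice overlapped. The order rests in part on the length used. With the longest annotated transcript Grm7 stood above Grm2, and Grm8 and Grm4 were level at 4.71 and 4.70. With the coding length Grm5 led at 59.2, ahead of Grm3 at 39.2, and Grm8 at 8.16 had a higher mean than Grm4 at 7.75. Grm3 and Grm5 were the highest 2, Grm2 and Grm7 the middle 2, and Grm4 and Grm8 the lowest 2 with each of these lengths.

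As a share of the summed level per kilobase of the 6 receptors, group II receptors held 56.0%, 56.6% and 55.2% across controls 1 to 3 and 54.1%, 54.7% and 55.6% across ELS animals 1 to 3. The groups overlapped. Group III receptors held 17.5% to 19.0% in control mice and 17.9% to 18.7% in ELS mice, and Grm5 held 24.5% to 26.6% and 26.5% to 28.0%. Groups II and III together held 74.4% ± 1.04 in control mice and 73.0% ± 0.840 in ELS mice (± SD, 3 per group), a difference of -1.40 percentage points. It was -0.835 without control mouse 2 and -0.913 without ELS mouse 1. The level of this share rests on the length used. It was 61.5% and 59.8% with the coding length and 54.5% and 52.7% with raw counts.

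Among the shares of the single receptors, that of Grm3 was the only one without overlap, from 43.5% to 43.8% in control mice and from 41.8% to 42.6% in ELS mice. In CPM, a different measure, 8.28% of all genes had groups that did not overlap. The shares of Grm3 also did not overlap with the longest transcript, the coding length or raw counts, which reweight the same counts. This share was noticed after the values were seen, the shares of a mouse sum to a fixed total, and the CPM of Grm3 itself overlapped between the groups, so it is given as a description. With the coding length Grm3 held 25.3% to 26.8% over all mice and Grm5, at 37.1% to 41.5%, was the largest share.

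**Figure D3:**
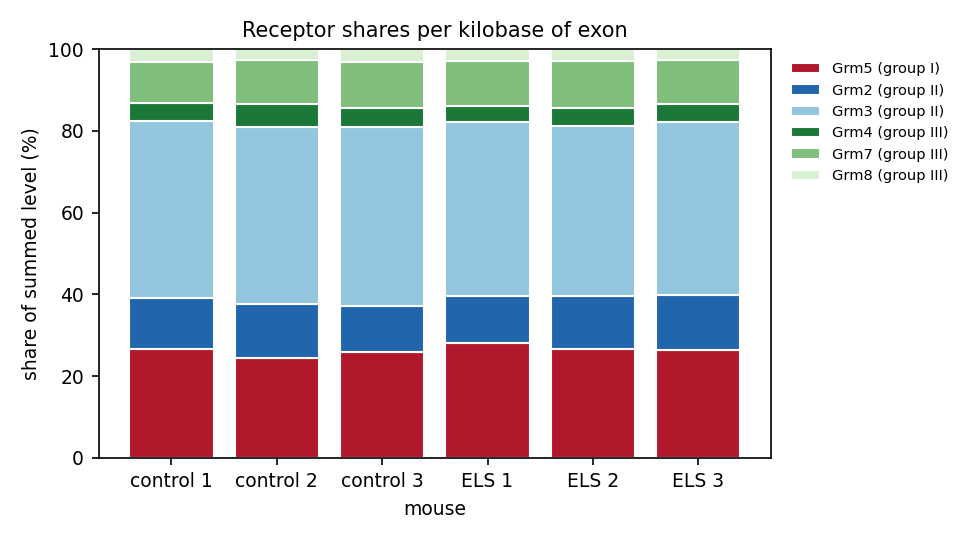
Share of the summed level per kilobase of the union of exons held by each receptor (vertical axis, %) in each of the 6 mice. Grm3 takes 41.8% to 43.8% of every bar and Grm5 24.5% to 28.0%, and the order of the shares is the same in all 6 mice.

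Of the 6 receptors, Grm2, Grm3 and Grm4 were lowest in the 2 mice whose striatal markers stood apart. Grm2 was at 40.8 and 42.5 CPM in the 2 mice with striatal marker sums of 561 and 547 CPM, and at 48.9 to 53.4 CPM in the other 4. Grm4 was at 20.3 and 17.9 CPM in these 2 mice, against 21.6 to 25.7 CPM. Grm3 was at 98.2 and 97.7 CPM, against 101 to 113 CPM. Over the 6 mice, the log2 level of Grm2, Grm3 and Grm4 had Pearson correlations of -0.869, -0.822 and -0.802 with the log2 striatal sum, and Grm5, Grm7 and Grm8 of -0.362, -0.269 and -0.27. These values are descriptions over 6 libraries that fall into 2 clusters along the striatal sum, and the points of a mouse share a library and its scaling. Other marker sums set the same 2 libraries apart. Excitatory neuron markers were lowest there, at 7402 and 6970 CPM, against 7823 to 8116 CPM in the other 4. Oligodendrocyte markers were at 8119 CPM in control mouse 3, 7197 CPM in ELS mouse 1 and 6176 to 6802 CPM in the others. Blood markers were at 85.2 and 79.8 CPM, against 51.0 to 64.4 CPM. Grm2 had correlations of 0.8 with the excitatory sum and -0.87 with the oligodendrocyte sum. Correlations with the blood sum were -0.917 for Grm2, -0.908 for Grm3 and -0.651 for Grm4, and Grm4 had 0.899 with the excitatory sum and 0.902 with the thalamic sum. The thalamic sum, 120.8 to 163.7 CPM, was mostly Rora, at 82.45 to 124.9 CPM. Rora and Slc17a6 were highest in control mouse 2, where Grm4 was highest. Prkcd was highest in ELS mouse 1, where Grm4 was lowest, and Tcf7l2 and Lef1 in control mouse 1. The interneuron sum, which did not set these 2 mice apart (882.2 to 944.6 CPM over all mice), had correlations of -0.782 with Grm3, -0.772 with Grm5 and -0.803 with Grm8. The striatal sum is thus one of several that varied with these receptors.

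**Figure D4:**
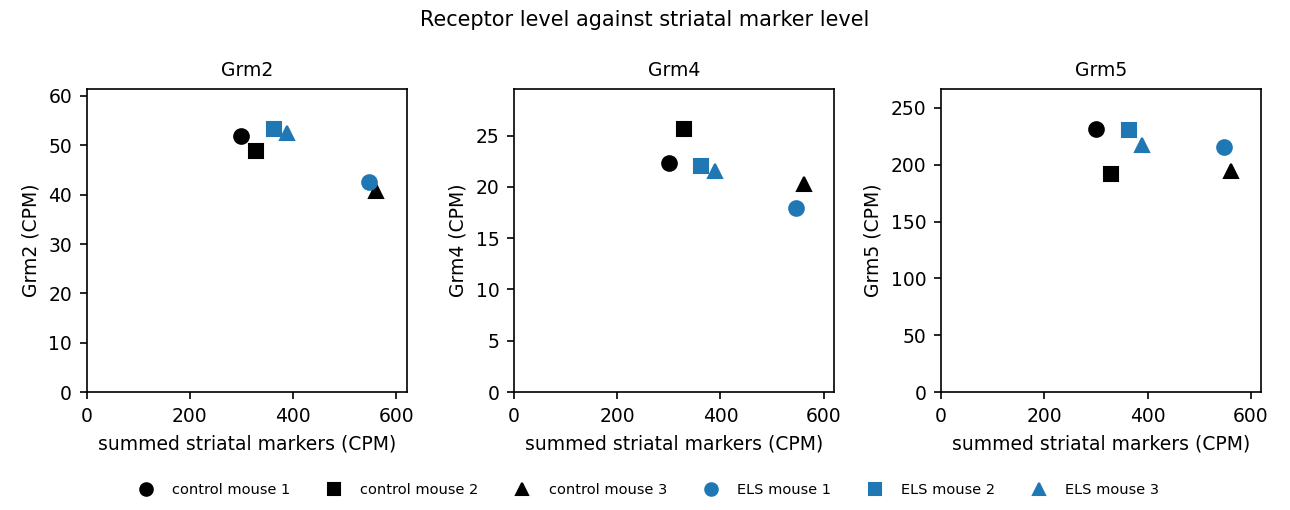
CPM of Grm2, Grm4 and Grm5 (vertical axes, from 0) against the summed CPM of 9 striatal marker genes (horizontal axis) in each mouse, control in black and ELS in blue. Control mouse 3 and ELS mouse 1 lie apart at 561 and 547 CPM and have the lowest Grm2 and Grm4, whereas Grm5 in these mice lies within the range of the others.

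A fit with the striatal score as a covariate moved the fold changes as follows. Grm2 went from 0.07 to 0.15 (standard error 0.062, unadjusted p = 0.0251, adjusted p = 0.564, edgeR) and Grm5 from 0.10 to 0.13 (unadjusted p = 0.043, adjusted p = 0.666, edgeR), and Grm4 went from -0.15 to -0.087. No receptor was called in this fit, which left 3 residual degrees of freedom, whereas 30 genes or 0.228% of all were called and 7.24% had an unadjusted p under 0.05. Leaving out both mice with high striatal markers gave fold changes of -0.14 for Grm4, -0.048 for Grm8, -0.023 for Grm3, 0.07 for Grm2, 0.08 for Grm5 and 0.14 for Grm7. No receptor was called there, where 27 genes or 0.204% of all were. The part of dissection or cell content in these differences was not tested.

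Across the 15 pairs of receptors, the correlation of log2 CPM over the 6 mice ran from -0.222 for Grm4 and Grm5 to 0.791 for Grm2 and Grm3, with a median of 0.59, and was above 0 in 13 pairs. The tested genes most like each receptor over these 6 mice were Sdc3 and Atp2b1 for Grm2 (r = 0.996 and 0.994), Fam124a and Ankrd50 for Grm3 (0.989 and 0.977), and Iqsec3 and Cdk16 for Grm4 (0.997 and 0.996). For Grm5 Unkl was the most alike (0.985), for Grm7 they were Il1rapl1 and Slc5a6 (0.991 and 0.98) and for Grm8 Prkaca and Rprm (0.988 and 0.982). Each was picked as among the highest over the 13185 tested genes and rests on 6 libraries. As many as 382 genes, or 2.9% of all tested, correlated above 0.9 with Grm4, and as few as 50, or 0.379%, with Grm7.

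Genes that act with these receptors were read from 5 lists covering Gq signaling, Gi/o signaling, scaffolds, desensitization and glutamate supply. None of the 73 genes tested was called, and those named below had an adjusted p of 0.99998 (edgeR, quasi-likelihood test). An unadjusted p under 0.05 was found for 3 of them, or 4.11%, beside 4.23% of all genes, and 4 had groups that did not overlap, or 5.48% beside 8.28% (Adcy5, Adcy8, Folh1 and Gls2). Fold changes were above 0 for 39 and below 0 for 34. The share of these genes at either mark was near or under that of all genes.

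Of the 13 genes for Gq signaling below group I receptors, 8 were above 0 and 5 below, with a median log2 fold change of 0.02. Itpr1, the inositol trisphosphate receptor that releases calcium, was the most abundant in CPM, at 967 ± 72.4 in control mice and 937 ± 83.0 in ELS mice (± SD, 3 per group). Dagla, which makes the endocannabinoid that Grm5 signaling releases, had the lowest fold change at -0.16 (standard error 0.105), and the protein kinase C gene Prkca the highest at 0.15 (standard error 0.103).

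Of the 15 genes for Gi/o signaling, 7 were above 0 and 8 below, with a median of -0.0026. At an unadjusted p under 0.05 there were 2, both adenylyl cyclases and both lower in ELS mice, where 2.34% of all genes were lower at that p. Adcy8, a calcium-stimulated cyclase, had 22.4, 23.4 and 18.8 CPM across controls 1 to 3 and 18.7, 17.99 and 17.1 CPM across ELS animals 1 to 3. Its groups did not overlap. The log2 fold change was -0.26 (standard error 0.0962, unadjusted p = 0.0171, edgeR). Adcy9 had 54.6 ± 2.64 CPM in controls and 46.3 ± 6.76 CPM under ELS (± SD, 3 per group), a log2 fold change of -0.24 (unadjusted p = 0.0282, edgeR). Adcy1, the most abundant of the list, was at -0.16, and the potassium channel subunit Kcnj3 had the highest fold change at 0.08. Adcy5, named after its values were seen, was at 192 ± 1.93 and 199.8 ± 3.11 CPM (± SD, 3 per group), without overlap and with a log2 fold change of 0.06 (standard error 0.0609). Adcy1 and Kcnj3, like Itpr1, Prkca, Dagla, Elfn2 and Slc1a2 of the other lists, were lowest in control mouse 3 and ELS mouse 1, the 2 mice with high striatal markers, and the part of these markers was not tested.

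Of the 17 scaffold and partner genes, 14 were above 0 and 3 below, with a median of 0.02 and no gene at an unadjusted p under 0.05. Elfn2, a transsynaptic partner of group III receptors, had the lowest fold change at -0.17 (standard error 0.0941) and Homer3, of the family that tethers group I receptors, the highest at 0.14 (standard error 0.126). Of the 13 genes for desensitization, which include the receptor kinases Adrbk1 and Adrbk2 (also named Grk2 and Grk3), 5 were above 0 and 8 below with none at that p. Rgs4, which speeds the shut-off of Gq and Gi proteins, was the most abundant at 687 ± 17.8 and 677 ± 37.7 CPM (± SD, 3 per group), Rgs14 had the highest fold change at 0.16 and the low-abundance kinase gene Grk4 the lowest at -0.27 (standard error 0.228).

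Of the 15 genes for glutamate supply (a further one, Naalad2, was below the filter), 5 were above 0 and 10 below, with a median of -0.014. Slc7a11, the cystine-glutamate exchanger that supplies glutamate outside synapses, had 65.6, 52.8 and 56.4 CPM across controls 1 to 3 and 66.6, 65.4 and 70.3 CPM across ELS animals 1 to 3. The groups overlapped through control mouse 1, and the log2 fold change was 0.21 (standard error 0.0832, unadjusted p = 0.0264, edgeR), where 1.89% of all genes were higher at an unadjusted p under 0.05. Folh1, the peptidase that cleaves the Grm3 agonist NAAG, had 7.83, 6.94 and 6.92 CPM in controls and 6.42, 6.35 and 6.58 CPM under ELS, groups that did not overlap. Its log2 fold change of -0.17 had a standard error of 0.122 and a 95% interval of -0.43 to 0.098, which includes 0. The glutamate transporter Slc1a2 was the most abundant, at 4151 ± 148 and 3928 ± 422 CPM (± SD, 3 per group), and Slc1a6, the transporter best known from Purkinje cells, had the highest fold change at 0.26 (standard error 0.133).

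**Figure D5:**
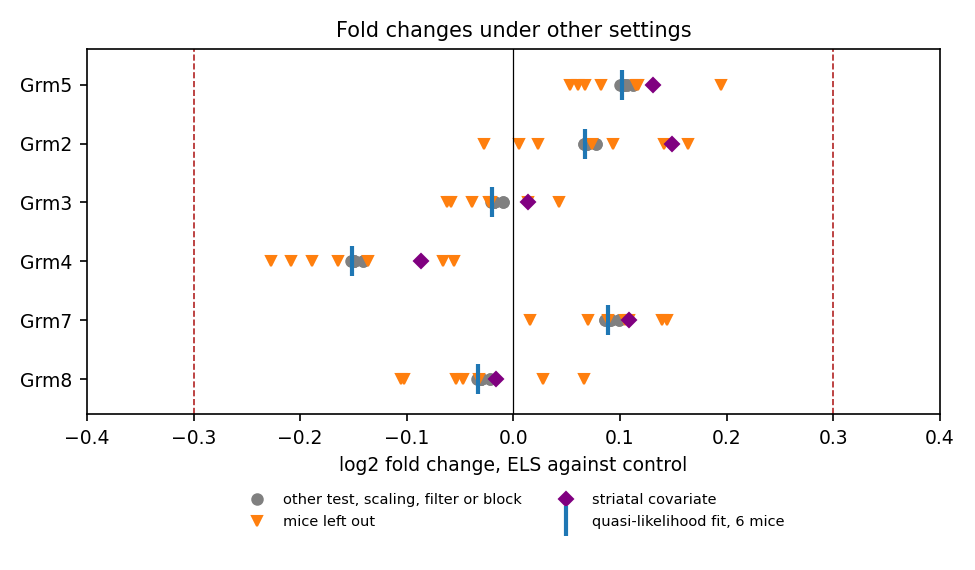
Log2 fold change of each receptor (horizontal axis) in the quasi-likelihood fit on 6 mice (blue bars), under other tests, scalings, filters and the replicate block (grey), with mice left out (orange) and with the striatal covariate (purple). All values lie inside the dashed thresholds of 0.3, and those of Grm2, Grm3 and Grm8 fall on both sides of 0.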

How the data were processed

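PFC RNA of 3 control and 3 ELS mice was sequenced. Per the paper and the labels, the authors trimmed reads, aligned them to mm10 with STAR (2.7.1a in the submitters' notes, another version in the paper), assigned unique alignments to genes with HTSeq (0.9.1) and deposited raw counts, neither normalized nor pooled. The columns of ELS mice are named SI, read as social isolation, and were matched by number. Nothing says that same-numbered mice are paired.

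Counts were tested in R 4.3.3 with edgeR 4.0.16 (TMM, quasi-likelihood F-test, condition as the only term, Benjamini-Hochberg over 13185 genes). Standard errors came from the F statistic. DESeq2 1.42.0 and limma 3.58.1 were alternatives, with other scalings, filters, a replicate block, a striatal covariate and each mouse left out. Fits were tested on simulated data. Libraries of a group differed by more than sampling noise (chi-square per degree of freedom of at least 6.25). Exon lengths came from GENCODE M21, where 89.2% of symbols matched. Intervals cover these mice only.

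The members and lists were chosen with earlier results of these data known. Named genes were the 6 members, and in each list the most abundant, the highest and lowest fold change and any gene at an unadjusted p under 0.05, plus the 2 genes most correlated with each member. The fit without both mice with high striatal markers and the motifs were chosen after values were seen. Some genes that this rule names are not reported here. Shares summed over receptors are given without a p.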

Additional observations from a re-analysis of the deposited data

How the results depend on the processing

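No receptor was called in any of the 18 alternatives of the fit, and no pathway gene either. The lowest adjusted p of any receptor was 0.401, for Grm4 without control mouse 3. Grm4, Grm5 and Grm7 kept their direction in all 18. Grm3 turned to 0.0136 with the striatal covariate and ran from -0.062 to 0.043 with a mouse left out. Grm2 ran from -0.028 to 0.16 and Grm8 from -0.11 to 0.066 with a mouse left out, and the median of the receptors from -0.041 to 0.087. The cause of these turns was not tested. The number of genes called over the whole table was 2, and became 18 with DESeq2, 28 by likelihood ratio, 4 when any gene with a read was tested, 7 with the replicate block and 30 with the striatal covariate. It ran from 1 to 29 with a mouse left out, the 29 coming without control mouse 3, and was 27 without both mice with high striatal markers. Same-numbered mice had correlations of deviations of -0.164, 0.258 and -0.036, which does not settle a pairing, and the replicate block changed no receptor's call or direction. The difference in the Grm2 to Grm3 ratio is 0.086 in the replicate block by construction, with an exact permutation p of 0.75 in place of 0.4, and ran from 0.027 to 0.16 with a mouse left out. The difference in the share of groups II and III ran from -1.86 to -0.835 percentage points with a mouse left out and stayed below 0 by each of the 3 exon lengths and by raw counts. The precision at other depths or with more mice was not tested.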
